A study of Homo sapiens with 48 samples.

Results

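Scavenger receptors are surface proteins through which macrophages take up particles, modified lipoproteins, spent haemoglobin complexes and glycans. The set described here holds 8 genes, chosen by symbol alone: MARCO, MSR1, CD36, SCARB1, OLR1, MRC1, CD163 and STAB1. They are 8 of the 20399 genes with a symbol on the array, and 19 of its 45220 measured features (spots with a probe) belong to them. CD36 has 10 features, MSR1 has 3 and each of the other members has 1. Where a gene had several features, the one with the highest mean was used, and the others are described where they differ. The MRC1 feature carries the older symbol MRC1L1, which the RefSeq gene table lists as a synonym of MRC1, so a signal shared with a near-identical copy cannot be told apart from MRC1 itself. On GRCh38.p14 in RefSeq, the genes lie at chr2:118942194-118994660 (MARCO), chr3:52495338-52524495 (STAB1), chr7:80602207-80679274 (CD36), chr8:16107881-16192651 (MSR1), chr10:17809348-17911164 (MRC1), and on chromosome 12 at chr12:7470811-7503777 (CD163), chr12:10158301-10176266 (OLR1) and chr12:124776856-124863864 (SCARB1).

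The cells were THP-1, a human monocytic leukaemia line that takes on macrophage features after treatment with the phorbol ester PMA, which all groups received, controls included. Samples were labelled as exposed for 6 or 24 h to 100 µg of 1 of 6 carbon materials (rCNT, tCNT, Baytube, Graphite, Fullerene or SES, named as in the labels), with 3 samples in each of the 12 exposed groups. The controls, in medium alone, had 6 samples at 6 h and 6 at 24 h, and carried the code 1 or 6 in the labels. All 48 samples come from 1 cell line, and nothing in the labels says that replicates came from separate cultures, so p-values measure the spread between these samples, which may be technical. Total RNA was amplified, labelled with 1 of 3 dyes and hybridised to arrays, and the deposited values are on a log2 scale from 6.05 to 16.00, with sample medians of 7.68 to 7.70. The number of arrays limits the precision, and levels of different probes do not rank genes against each other.

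One property of the whole series bears on every result below. Each sample is a column of the deposited table, and smooth intensity patterns over the array surface should be shared by samples of 1 array. In 46 of 48 samples the closest surface pattern belonged to a sample 20 or 40 columns away, with a median correlation of 0.85 over 36 such pairs, whereas 38 pairs labelled as sharing an array had a median of -0.08. The mean correlation of gene deviations was 0.63 between samples 20 or 40 columns apart and -0.0089 between samples of the same labelled group. The columns therefore fell into 20 sets of 2 or 3 samples, and the labels were kept as deposited, with no sample reassigned. Whether the order of columns and the labels are out of step was not tested further, so groups are called by their labels throughout. Of 10 listed macrophage markers 8 were measured, with mean log2 values of 12.84 to 15.71. Of other cell types, 3 of 6 lymphocyte, 3 of 7 endothelial, 2 of 5 epithelial and 1 of 5 fibroblast markers averaged above 7.40, the median bottom of the scale defined below, with GNLY at 11.30 and PECAM1, which myeloid cells also express, at 12.76. The rest of those above it were CD79A at 10.64, PDGFRA at 9.32, KRT8 at 8.91, NKG7 at 8.79, KRT18 at 8.21, VWF at 7.70 and CDH5 at 7.56. CD3E, MS4A1, EPCAM, COL1A1 and KDR, from the same lists, averaged between 6.68 and 7.28. Of 6 promyelocyte markers 5 averaged above it, with AZU1 highest at 13.44 and MPO lowest at 6.61.

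Of the 8 receptors, 5 were well above the bottom of the scale, and 3 sat near it. The bottom was set in each sample as the 80th percentile of 11 genes of other tissues, which lay between 6.91 and 8.14 with a median of 7.40. CD36, SCARB1, MSR1, OLR1 and CD163 exceeded it in 48 of 48 samples, MARCO in 31, STAB1 in 17 and MRC1 in 7. Of those 11 genes, GCG at 9.80 and CRYAA at 13.43 were themselves high, and with the 90th percentile in place of the 80th only 3 receptors were above in all samples.

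The class B receptors bind lipoproteins and fatty acids. CD36, which takes up long-chain fatty acids and oxidised low-density lipoprotein, had a lowest log2 value of 13.34, a median of 14.49 and a highest of 15.10 over the 48 samples. SCARB1, the receptor for high-density lipoprotein that mediates uptake of cholesteryl ester, ran from 12.86 through a median of 13.77 to 14.54. SCARB1 had the smallest spread of the 5 well-detected members, with a mean of 13.78 ± 0.34 (SD, n = 48).

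The class A receptors have collagen-like stalks and bind modified lipoproteins, bacteria and particles. MSR1, the macrophage scavenger receptor for acetylated and oxidised low-density lipoprotein, ranged from 10.71 to 14.86 with a median of 12.87. MARCO, known on alveolar macrophages as a receptor for bacteria and inhaled particles, ranged from 6.77 to 8.88 with a median of 7.51.

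The lectin-like members, OLR1 and MRC1, were unlike each other. OLR1, the lectin-like receptor for oxidised low-density lipoprotein also called LOX-1, ranged from 9.23 to 12.28 with a median of 11.02. MRC1, the mannose receptor, stayed between 6.45 and 7.55 with a median of 7.12, below the bottom of the scale in most samples. Of the members outside these classes, CD163, which binds haptoglobin-haemoglobin complexes, ranged from 11.37 to 14.91 with a median of 13.85. STAB1, or stabilin-1, an endocytic receptor for acetylated low-density lipoprotein and extracellular matrix fragments, ranged from 6.50 to 7.78 with a median of 7.22.

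CD163 and MARCO are shown as 1 receptor above the bottom of the scale in all samples and 1 near it. Their 250 bases before the gene start, from RefSeq on GRCh38.p14, are shown with capitals for GAGGAA or its reverse complement TTCCTC, a core that the myeloid factor PU.1 (SPI1) binds, searched on both strands. The CD163 window is chr12:7503778-7504027 on the minus strand and the MARCO window is chr2:118941944-118942193 on the plus strand.
CD163: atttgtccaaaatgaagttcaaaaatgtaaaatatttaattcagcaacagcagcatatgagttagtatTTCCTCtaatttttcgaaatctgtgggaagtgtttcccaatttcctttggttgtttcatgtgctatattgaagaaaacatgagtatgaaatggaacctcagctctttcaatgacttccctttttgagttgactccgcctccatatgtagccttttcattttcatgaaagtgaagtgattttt
MARCO: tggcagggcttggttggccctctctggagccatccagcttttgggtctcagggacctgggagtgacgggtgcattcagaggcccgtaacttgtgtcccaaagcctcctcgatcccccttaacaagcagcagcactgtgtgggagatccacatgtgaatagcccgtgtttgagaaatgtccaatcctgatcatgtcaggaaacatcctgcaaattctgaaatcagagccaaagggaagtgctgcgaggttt
The CD163 window held 1 match, starting 182 bases before the gene start (position -182), and the MARCO window held 0. Matches did not follow the level among the members with windows at hand. The window of STAB1, also near the bottom of the scale, held 1 match at position -83. Of the windows of CD36, above the bottom in all samples, some held 1 match and others 0. Of 35116 windows of the same length, 23.6% held at least 1 match, so a match describes the letters only. TGANTCA, the core of AP-1 sites, was in neither the CD163 nor the MARCO window and in 6.6% of all windows. SPI1 itself averaged 13.08 ± 2.68 (SD, n = 48).

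**Figure D1:**
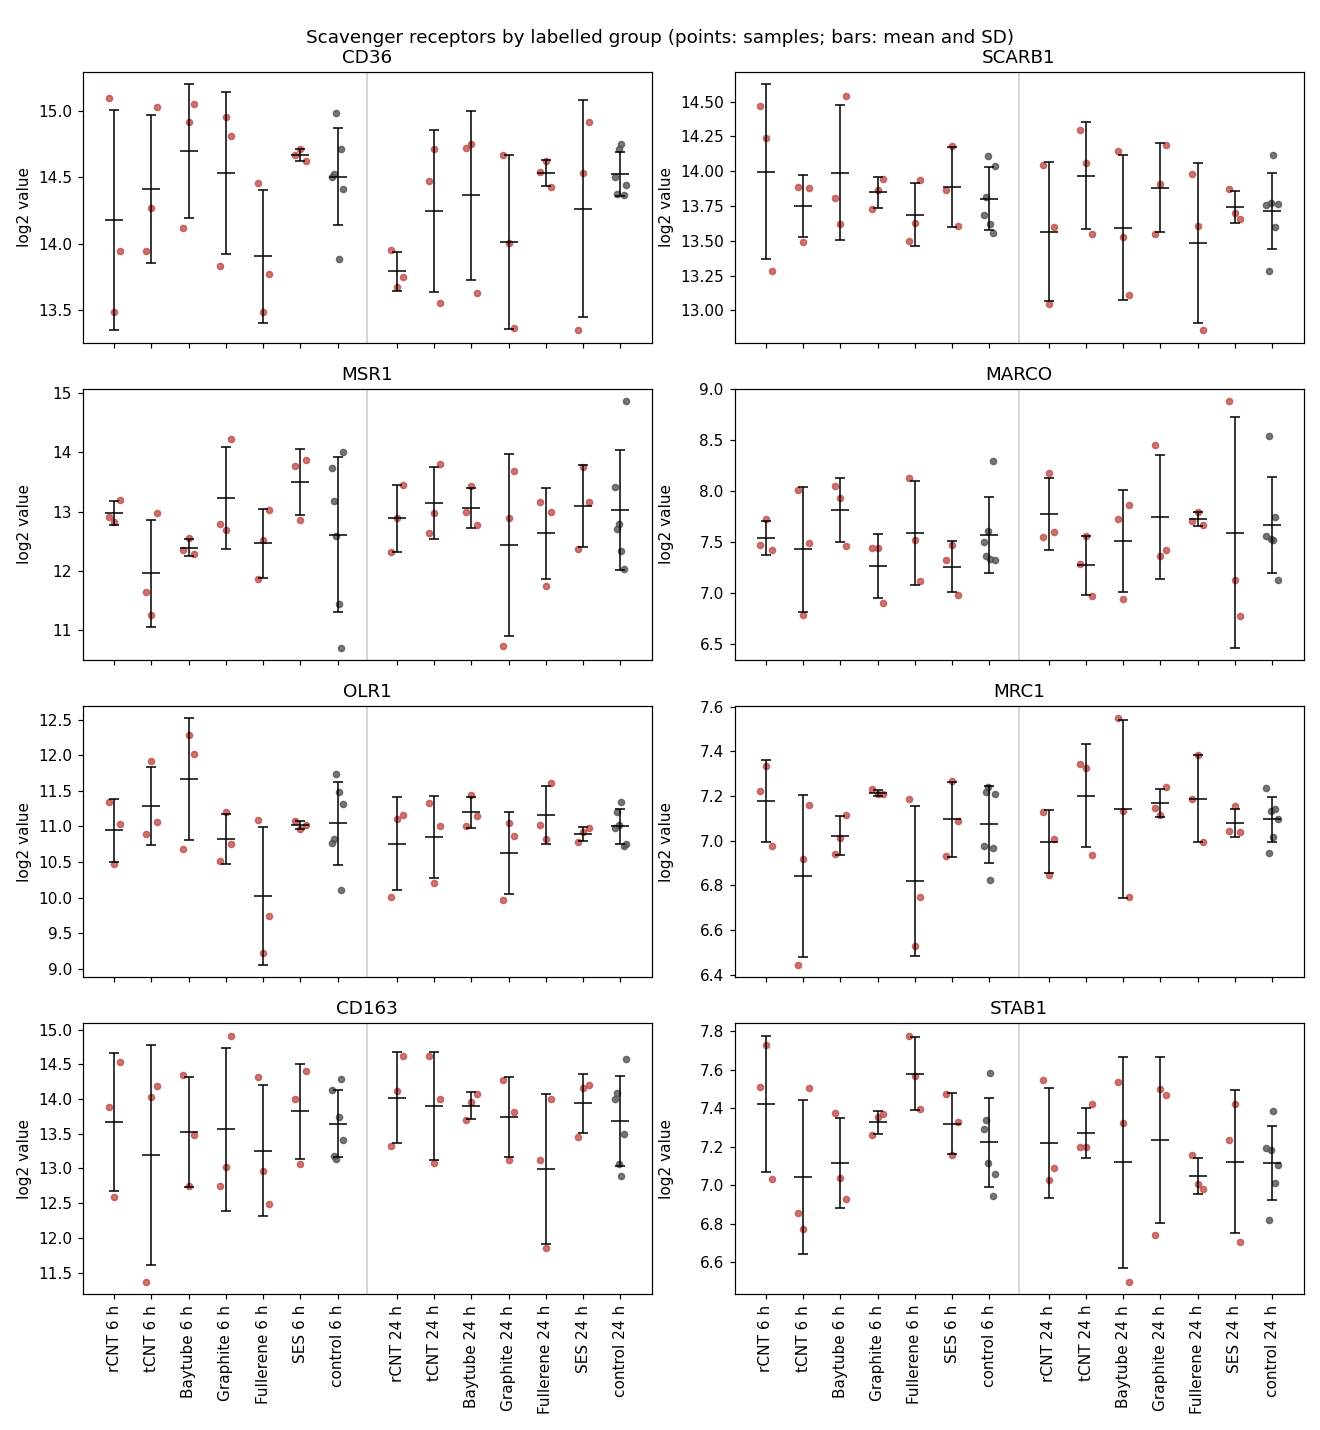
Log2 value of each receptor (vertical axes, each with its own scale) in the 14 labelled groups, with the 6 h groups left of the 24 h groups. Points are samples, red for material and grey for control, and bars give the mean and SD. The samples of most groups overlap their controls, and the 3 rCNT 24 h samples of CD36 lie below the 6 controls of that time.

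The comparison of each material with the control of the same time asks whether the labelled exposures moved these receptors. None of the 96 pairs of a receptor and a material contrast passed the test (limma, adjusted p under 0.05, dye as a covariate), and the lowest adjusted p was 0.272. At an unadjusted p under 0.05 there were 2 pairs of 96, where 4.5% of all gene and contrast pairs reached that level. Groups did not overlap in 1 pair of 96, against 2.7% of all pairs. In 11 of the 12 contrasts the share of all genes past the adjusted threshold was 0%, and in Fullerene 6 h it was 0.446%. The median standard error of the members was 0.33 on the log2 scale, so differences of that size could not be resolved. Larger differences could also miss the threshold, as did the OLR1 value of -1.02 for Fullerene 6 h (adjusted p of 0.272 by limma).

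OLR1 had the lowest p of the set. Its log2 values in the samples labelled Fullerene 6 h were 11.10, 9.23 and 9.74, against 10.77, 10.83, 11.73, 11.49, 10.11 and 11.32 in the 6 h controls. Replicates 2 and 3 of Fullerene lay below all 6 controls and replicate 1 lay among them, so the groups overlapped. The means were 10.02 ± 0.97 (SD, n = 3) and 11.04 ± 0.59 (SD, n = 6), and the log2 fold change was -1.02 ± 0.36 (SE) with an unadjusted limma p of 0.00811 and an adjusted p of 0.272. In that contrast 11.2% of all genes had an unadjusted p under 0.05. Without replicate 1 of Fullerene the log2 fold change was -1.65 with an adjusted p of 0.0102 (limma), and without replicate 2 it was -0.53. The low samples, replicates 2 and 3, belong to the same column set, whose other sample, labelled tCNT 6 h, had 10.90. CD163 and MRC1 were also at their lowest in that set, with set means of 12.27 and 6.57.

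Leaving out the 6 samples with the strongest surface patterns (SD of the surface component above 0.2) took away the same replicate 1 of Fullerene 6 h and also replicate 5 of the 6 h controls, the lowest control at 10.11, and then OLR1 fell by 1.89 with an adjusted p of 0.00064 (limma). Without that control alone the log2 fold change was -1.21 with an adjusted p of 0.147. In both fits without replicate 1 of Fullerene, the 2 Fullerene 6 h samples left came from 1 column set. The fits treat these samples as independent, so the 2 low adjusted p-values rest on 1 set. With the column sets as a random block the log2 fold change was -0.72 with an adjusted p of 0.648. At 24 h OLR1 averaged 11.16 ± 0.41 (SD, n = 3) under the Fullerene label, against 11.00 ± 0.24 (SD, n = 6) in controls. The difference between the Fullerene effects at 24 and 6 h was 1.17 ± 0.51 (SE), with an unadjusted p of 0.0284 and an adjusted p of 0.9945 by limma, where 4.3% of all genes had an unadjusted p under 0.05.

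Of the listed markers of other cell types, 1 passed in a material contrast, and it did so in Fullerene 6 h, where 0.446% of all genes passed. CLDN5, a tight junction protein of endothelial cells and 1 of 7 listed endothelial markers, had log2 values of 7.24, 8.26 and 8.18 in the Fullerene samples, against 6.65, 6.80, 6.76, 7.36, 6.79 and 6.83 in the 6 h controls. Replicates 2 and 3, the low samples of OLR1, lay above all 6 controls and replicate 1 lay among them. The means were 7.90 ± 0.57 (SD, n = 3) and 6.87 ± 0.25 (SD, n = 6), and the log2 fold change was 1.03 ± 0.21 (SE) with an adjusted p of 0.0138 by limma. The adjusted p was 0.496 without replicate 2, 0.268 without replicate 3 and 0.177 with the column sets as a random block. Over its 48 samples CLDN5 averaged 7.00 ± 0.40 (SD), below the median bottom of the scale, and its part in the OLR1 value was not tested.

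In the order of the 14 group means of OLR1, Baytube 6 h was highest at 11.66 ± 0.85 (SD, n = 3) and Fullerene 6 h lowest. The step between Graphite 24 h, at 10.62 ± 0.57, and Fullerene 6 h was 0.60 and exceeded the pooled SD of 0.52. It was the only 1 of 13 neighbouring steps of OLR1 to do so, and the other 7 members had 0 such steps. Labelled groups held 36.8% of the variance of OLR1, a share that 9.79% of all genes reached or passed. With 14 groups in 48 samples, 27.7% is the share with no structure. Over all groups, the moderated F statistic of limma had an unadjusted p of 0.142 for OLR1, the lowest among the members, and an adjusted p of 0.9998. By this statistic 0.0196% of all genes passed the adjusted threshold and 2.77% had an unadjusted p under 0.05.

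CD36 gave the other low p. Its log2 values in the samples labelled rCNT 24 h were 13.95, 13.67 and 13.75, against 14.50, 14.37, 14.71, 14.75, 14.37 and 14.44 in the 24 h controls. All 3 lay below all 6 controls, where 3.82% of all genes had groups that did not overlap in that contrast. The means were 13.79 ± 0.15 (SD, n = 3) and 14.53 ± 0.17 (SD, n = 6). The log2 fold change was -0.73 ± 0.35 (SE), with an unadjusted p of 0.0447 and an adjusted p of 0.910 by limma, and 4.5% of all genes had an unadjusted p under 0.05 there. All 10 CD36 features, repeated measurements in the same hybridisations, gave a value below 0 in that contrast, from -0.85 to -0.19. With the column sets as a random block the log2 fold change of the feature used was -0.43 and did not pass. In the order of group means rCNT 24 h was the lowest and Baytube 6 h, at 14.70 ± 0.51 (SD, n = 3), the highest, with each step between neighbours smaller than the pooled SD of 0.50.

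A difference of CD36 ran with the place of the columns. In columns 1 to 4, 21 to 24 and 41 to 44, which are 12 samples and hold 0 controls, CD36 averaged 13.67 ± 0.23 (SD, n = 12), against 14.58 ± 0.32 (SD, n = 36) in the other columns. The values ran from 13.34 to 14.00 in the 12 samples and from 13.75 to 15.10 in the 36, of which 3 lay below the highest of the 12. The difference of -0.91 held 64.4% of the variance of CD36, where the median over all genes was 6.9% and 3.83% of genes reached as much. All 10 CD36 features were lower in those columns, by differences from -0.96 to -0.27. This grouping was seen in the data and is given with no test. Replicates 1 and 2 of rCNT 24 h and replicates 2 and 3 of Fullerene 6 h are among the 12. With a term for those columns the rCNT 24 h value of CD36 became -0.14 and the Fullerene 6 h value, -0.60 without it, became -0.002. Those columns were picked after the values were seen and hold exposed samples only. A term for them takes up part of any exposed difference, so place and label cannot be told apart by it. Among the other members the same columns held 16.8% of the variance of OLR1, 14.6% of MRC1, 13.2% of CD163 and at most 2.3% of MARCO, STAB1, SCARB1 and the MSR1 feature used. Of the other MSR1 features, 1 had 0.8% and the other had 27.6%, with a mean of 11.46 ± 0.37 (SD, n = 12) in those columns, against 12.17 ± 0.55 (SD, n = 36) in the rest.

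**Figure D2:**
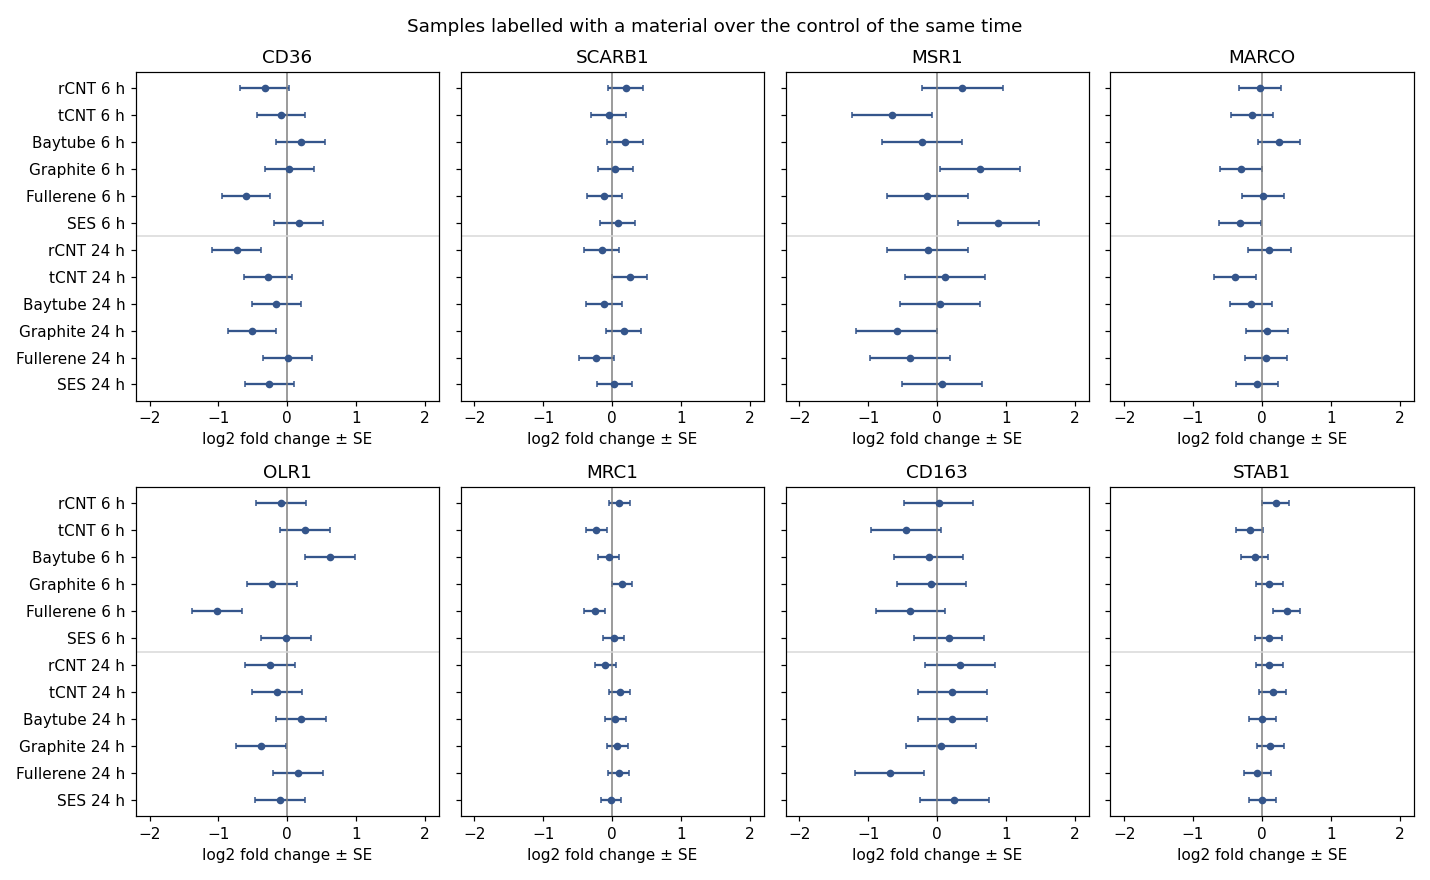
Log2 fold change and SE (horizontal axis) of each receptor in the samples labelled with each material over the control of the same time, with 6 h above the line and 24 h below it. The OLR1 value for Fullerene 6 h, -1.02, and the CD36 value for rCNT 24 h, -0.73, lie farthest from 0 relative to their SE.

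The 10 features of CD36 are repeated measurements of 1 transcript in the same hybridisation. Over the features, mean log2 values lay between 13.63 and 14.35. Within a sample the range over the 10 had a median of 0.90 but ran from 0.37 to 6.00, and it exceeded 4 in 4 samples. The 3 features in rows 309, 328 and 330 of the array moved together with a median correlation of 0.91 over 48 samples, and the other 7 moved together with a median of 0.77. Between the 3 and the 7 the median was 0.23, and 0.63 without the 6 samples with the strongest surface patterns. MSR1 has 2 features close by, in rows 315 and 317, and these correlated with the 3 CD36 features at a median of 0.55, against 0.01 with the other 7. Without the 6 samples with the strongest surface patterns these medians were 0.33 and 0.12. The rows were grouped after the values had been seen, and points share arrays, so these are descriptions.

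The feature in row 309 had values from 9.22 to 15.65, and its column set held 97.5% of its variance, against 81.6% for the feature used. For Graphite 24 h the log2 fold change of CD36 ran from -2.56 to 0.03 over the 10 features, with the lowest from row 309. In that contrast 4 of the 10 had an unadjusted p under 0.05, where 15.1% of all features did, and the lowest adjusted p was 0.210 by limma. For tCNT 24 h it ran from -1.78 to 0.03. For Graphite 6 h it ran from -0.16 to 1.12. For Fullerene 6 h all 10 were below 0, from -1.13 to -0.15, with 3 at an unadjusted p under 0.05, where 10.3% of all features were, and a lowest adjusted p of 0.284 by limma. For rCNT 24 h 2 of the 10 had an unadjusted p under 0.05, against 4.15% of all features, and in the other 9 material contrasts 0 did. None of the 10 features passed the adjusted threshold in any contrast, where 0.0358% of all pairs of a feature and a material contrast did.

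**Figure D3:**
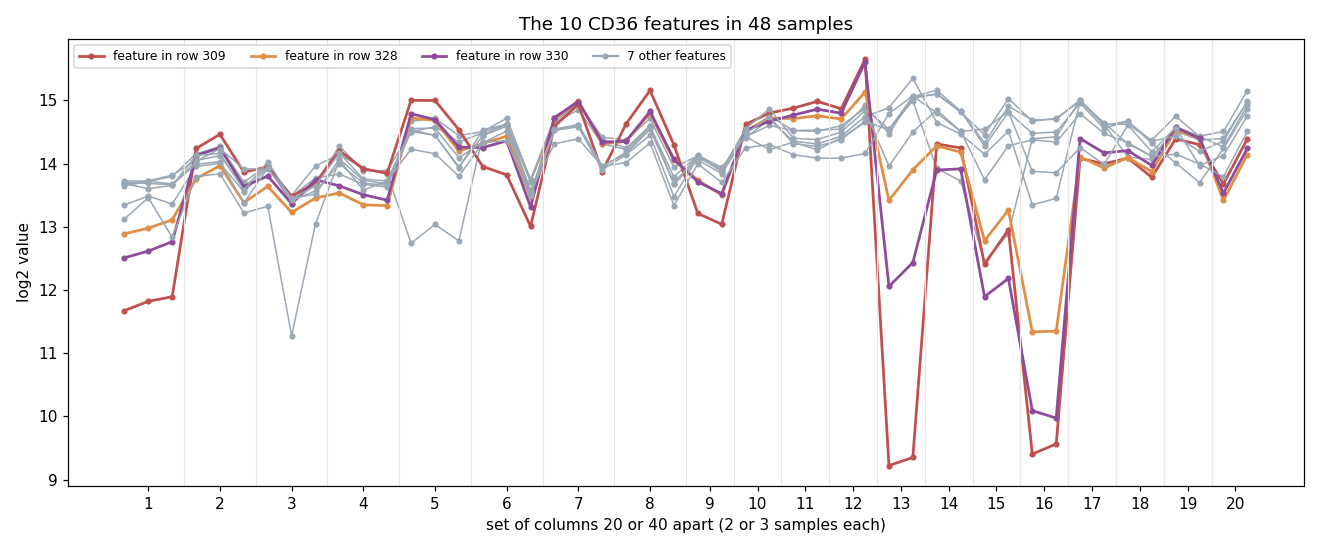
Log2 value (vertical axis) of the 10 CD36 features in the 48 samples, ordered along the horizontal axis by the 20 column sets, with lines joining the samples of 1 feature. The features of rows 309, 328 and 330 are coloured and drop together in sets 1, 15 and 16, and row 309 falls as low as 9.22 in set 13. Single features of the other 7, in grey, drop elsewhere, the lowest to 11.28 in set 3.

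MSR1 varied widely inside the labelled groups. In the samples labelled SES 6 h it had 13.78, 12.86 and 13.87, against 13.73, 13.19, 12.58, 11.44, 10.71 and 14.01 in the 6 h controls. Each SES value lay inside the range of the controls. The means were 13.50 ± 0.56 (SD, n = 3) and 12.61 ± 1.31 (SD, n = 6), and the log2 fold change of 0.89 ± 0.58 (SE) had an unadjusted p of 0.137 and an adjusted p of 0.9998 by limma. The SES 6 h value was 0.06 with the controls of code 1 alone and 1.72 with those of code 6 alone. By the same split the Graphite 24 h value of MSR1 was -1.25 and 0.08. At the low end tCNT 6 h averaged 11.96 ± 0.90 (SD, n = 3), a log2 fold change of -0.65. The 3 MSR1 features gave the same sign for SES 6 h, from 0.79 to 1.15, and for tCNT 6 h, from -0.65 to -0.45. Their signs differed for rCNT 6 h, at 0.37 for the one used and -0.14 and -0.34 for the others. They also differed in sign for tCNT 24 h, Baytube 24 h and SES 24 h. For rCNT 24 h the one used gave -0.14 and the others -0.78 and -0.76. For SES 6 h the feature at 0.79 had an unadjusted limma p of 0.0423, where 0.82% of all features were under 0.05, and an adjusted p of 1. The features differed more for Graphite 24 h, at -0.59 for the one used and -0.66 and -1.46 for the others, of which the last had an unadjusted p of 0.0176 and an adjusted p of 0.247 by limma, with 15.1% of all features under 0.05.

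CD163 averaged 12.99 ± 1.08 (SD, n = 3) in the samples labelled Fullerene 24 h, its lowest group, against 13.68 ± 0.65 (SD, n = 6) in the 24 h controls. The Fullerene values were 13.12, 11.86 and 14.00, with replicate 2 below the 6 controls and the other two among them, and the log2 fold change was -0.69. Its highest group was rCNT 24 h, at 14.02 ± 0.66 (SD, n = 3). SCARB1 had the narrowest range of log2 fold changes among the 5 well-detected members, from -0.23 for Fullerene 24 h to 0.25 for tCNT 24 h. The 3 receptors near the bottom of the scale had fold changes from -0.40 to 0.24 for MARCO, from -0.25 to 0.14 for MRC1 and from -0.18 to 0.36 for STAB1, whose highest was Fullerene 6 h.

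With all materials together against all controls, 0 members passed by limma and 0 had an unadjusted p under 0.05, where 0% and 8.47% of all genes did so. The values ran from -0.22 for CD36 to 0.07 for STAB1. MSR1, at -0.001, depended on the controls used. With those of code 1 alone it was at -0.75 (adjusted p of 0.723 by limma). With those of code 6 alone it was at 0.75 (adjusted p of 0.971 by limma), and the part of the code was not tested. In controls at 24 h against controls at 6 h, 0 members passed by limma and 0 had an unadjusted p under 0.05, where 0% and 1.14% of all genes did. The largest difference was 0.41 for MSR1, at 13.02 ± 1.01 (SD, n = 6) at 24 h and 12.61 ± 1.31 (SD, n = 6) at 6 h.

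Genes that work beside these receptors were taken as lists. None of 20 measured other scavenger and phagocytic receptors, none of 14 measured lipid handling genes (of 15 listed) and none of 10 measured regulators (of 12 listed) passed the adjusted threshold in the 14 contrasts by limma. With all materials together, 2 of the 20 receptors, 1 of the 14 lipid genes and 0 of the 10 regulators had an unadjusted p under 0.05, against 8.47% of all genes, so the shares of the receptor and lipid lists lay near that of all genes. The receptors were LRP1, a large endocytic receptor, with a log2 fold change of 0.40 ± 0.14 (SE) and an adjusted p of 0.570, and CD68, a lysosomal scavenger receptor, with 0.70 ± 0.29 (SE) and the same adjusted p by limma. In the lipid list NCEH1, a cholesteryl ester hydrolase, gave 0.25 and LIPA, the lysosomal acid lipase, gave -0.22. Among regulators, STAT6 gave 0.23 and CEBPA 0.33. Several lipid genes were near the top of the scale, with APOE averaging 15.74 ± 0.17 and NPC2 15.81 ± 0.19 (SD, n = 48).

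The column set held a larger share of each receptor's variance than the labelled group did. It held from 52.7% for CD163 to 81.6% for CD36, where 40.4% is the share with no structure and 80.02% the median over all genes. The labelled group held from 13.8% for CD163 to 36.8% for OLR1, where the median over all genes was 24.2%. For CD36 the column set share was above that of the median gene, and for the other 7 members it was below. The labelled dye held 20.1% of the variance of CD163 and 16.9% of that of MARCO, against 4.0% for the median gene.

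**Figure D4:**
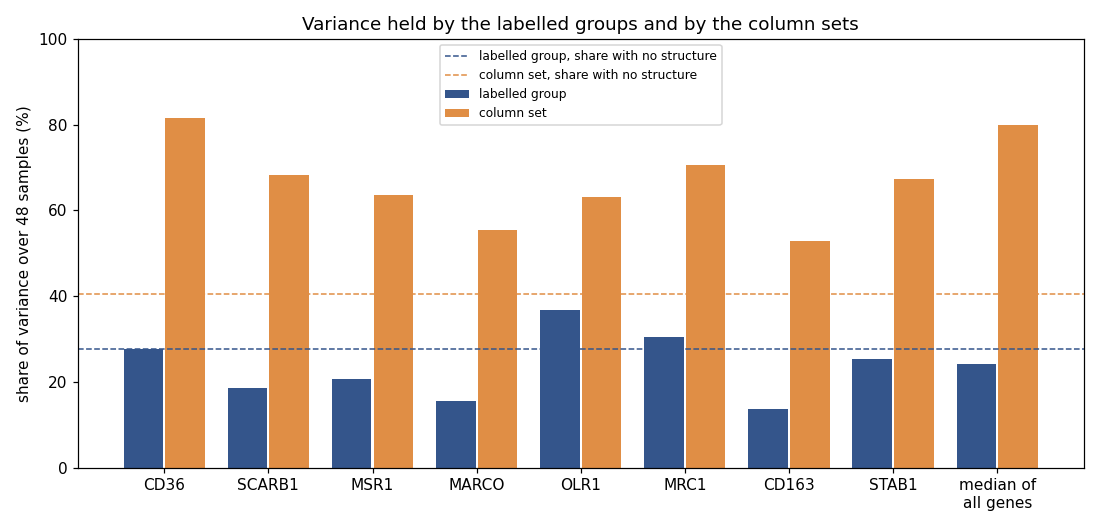
Share of variance over the 48 samples (vertical axis, percent) held by the labelled group (blue) and the column set (orange) for the 8 receptors and for the median of all genes, with dashed lines at the share expected with no structure, 27.7% and 40.4%. Each orange bar stands above its line, and only OLR1, MRC1 and CD36 reach the blue line.

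Co-variation was read over the 28 pairs of receptors. Over 48 samples the median Pearson correlation was 0.08, from -0.51 for MARCO and MSR1 to 0.45 for SCARB1 and MRC1. Samples of 1 column set are not independent, so the pairs were tested over the means of the 20 sets by permutation, two-sided. By Pearson's r, 0 of 28 pairs had an adjusted p under 0.05 and 3 had an unadjusted p under 0.05, with a lowest adjusted p of 0.289, and by Spearman's rho the lowest was 0.235. The pair of class A receptors, MARCO and MSR1, had r = -0.52 over the sets (permutation p = 0.0197, adjusted 0.289) and rho = -0.51 (permutation p = 0.0224, adjusted 0.235). Without the 2 sets farthest from the median of MARCO, r was -0.55, and MARCO lay near the bottom of the scale throughout. CD36 with MRC1 had r = 0.48 (permutation p = 0.0319, adjusted 0.289) and rho = 0.43 (permutation p = 0.0587, adjusted 0.235), and r was 0.70 without the 2 farthest sets. CD36 with OLR1 had r = 0.46 (permutation p = 0.0421, adjusted 0.289) and rho = 0.50 (permutation p = 0.0261, adjusted 0.235), and r was 0.49 without the 2 farthest sets. In the 16 sets outside columns 1 to 4, 21 to 24 and 41 to 44, these r were 0.54 and 0.13.

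Inside column sets the pattern differed. Of the 28 pairs, 5 had deviations from the set mean that correlated beyond 0.6 in size. The share over all pairs of genes was not computed, so this count does not set the receptors apart from other genes. The values of the 5 pairs were 0.64 for the class B pair of CD36 and SCARB1, 0.64 for SCARB1 and MRC1 and 0.63 for MSR1 and CD163. CD163 ran against CD36 at -0.67 and against SCARB1 at -0.65. Over the means of the sets the same 5 values were 0.15, 0.36, 0.00, 0.43 and -0.02. After the position of the column within its set was removed as well, they were 0.65, 0.60, 0.51, -0.58 and -0.62, and the farthest from 0 of the 28 was then -0.66 for MARCO and STAB1, both near the bottom of the scale, which had -0.40 before. Samples of 1 set share a surface pattern and the points are not independent, so these values carry no p, and the part of dye in them was not tested.

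**Figure D5:**
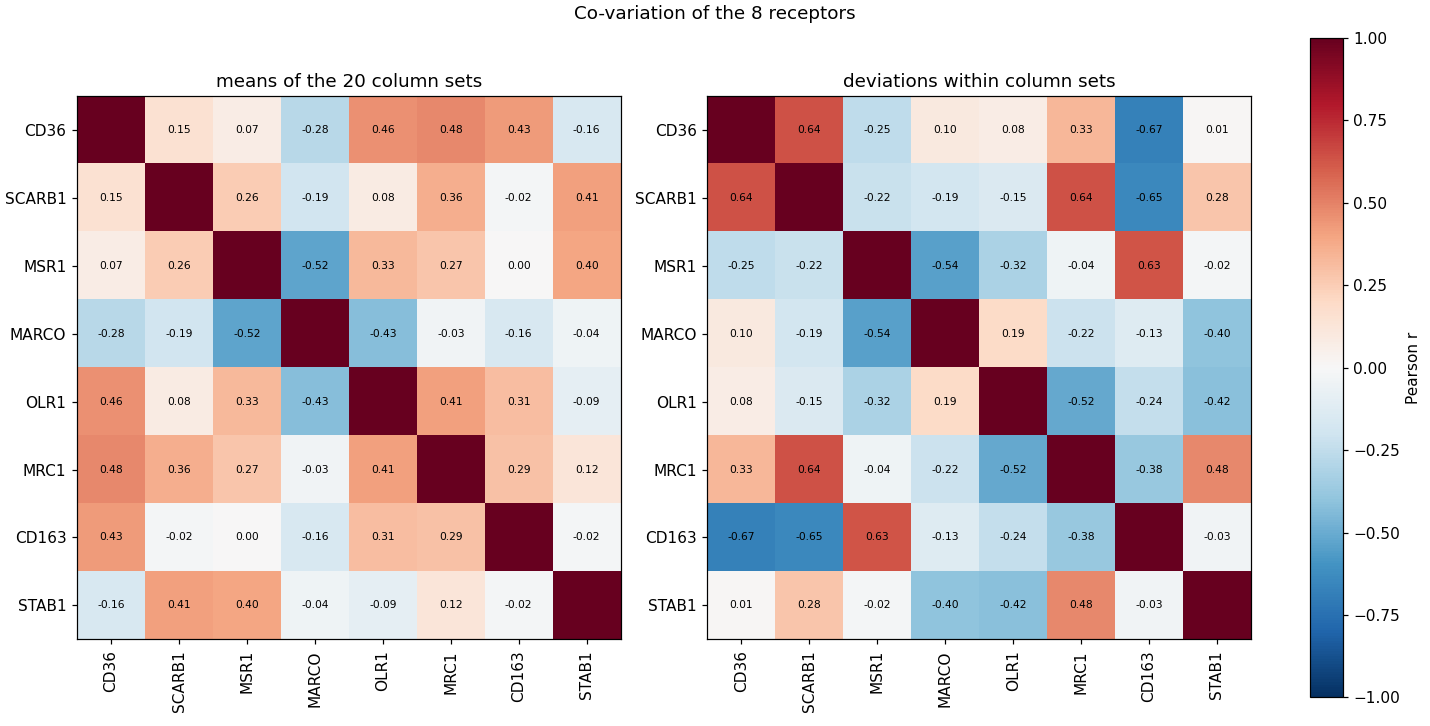
Pearson correlation of each pair of receptors over the means of the 20 column sets (left) and over the deviations of the samples from their set mean (right), with colour from -1 (blue) to 1 (red). CD36 and SCARB1 are paired at 0.64 on the right and 0.15 on the left, and CD163 with CD36 is -0.67 on the right and 0.43 on the left.

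The genes most like each receptor over the 48 samples were taken as the 3 with the highest Pearson correlation. For CD36 they were C4orf33 at 0.90, PARL at 0.88 and CD47 at 0.88, and 49 genes exceeded 0.8. CD47, a surface protein that signals to phagocytes through SIRP-alpha, lay 13.0 spots from the CD36 feature, while C4orf33 lay 141.1 spots away. For CD163 they were TLR2, the Toll-like receptor for bacterial lipoproteins, at 0.87 and 9.8 spots away, PCSK5 at 0.83 and DISP1 at 0.82. For MSR1 they were DOP1B at 0.85, HS6ST1 and TPRG1, each within 30.0 spots, and for SCARB1 TSPAN32 at 0.81, PIK3C2B and ITGA7, each within 18.4 spots. For the other 4 receptors the closest gene had a correlation from 0.70 for OLR1 with ARFGAP3 to 0.76 for STAB1 with TGFBR2, with MARCO and SLC27A5 at 0.73 and MRC1 and RECK at 0.74. All of these are the highest among 20399 genes, over samples that are not independent, so they carry no p. The share of all pairs of genes above 0.8 was not computed. Within column sets the TLR2 value was 0.91, the CD47 value 0.70 and that of MRC1 with DPYD 0.37. After removal of the surface component the TLR2 value was 0.89 and the CD47 value 0.87. The largest falls were those of MARCO with SSX2, from 0.72 to 0.49, and of MRC1 with DPYD, from 0.74 to 0.53.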

How the data were processed

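Gene expression was measured on arrays in 48 samples of the THP-1 line, and 1 table of the whole series was used. Its log2 values were deposited by the authors. R 2.3 and limma are named, per the submitters' processing notes; background correction and normalization are not given in the sources used here. Each column was matched to a sample by its name. Features were named through the platform annotation, updated by gene ID to RefSeq symbols (35268 of 45220 features had 1 symbol). For each of 20399 symbols the feature with the highest mean was kept. limma 3.58.1 in R 4.3.3 fitted the 14 labelled groups with dye as a covariate (32 residual degrees of freedom), and p-values were adjusted by Benjamini-Hochberg over all symbols within a contrast, with a threshold of 0.05. The fit was tested on simulated data with independent samples, which lack the correlation within column sets and so do not check the p-values under it. The surface component is the median of deviations over 11 by 11 neighbouring spots. Correlations over column sets used 100000 permutations in scipy 1.17.1.

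The members and lists were chosen with earlier results of these data known. Named genes were the 8 members, the 3 genes most correlated with each, genes of the receptor, lipid and regulator lists that passed a contrast (0 genes), and the 2 of each of these lists with the lowest p over all materials; genes given as markers, CLDN5 among them, as regulators or as examples of level were chosen after their values were seen. Samples numbered alike in their titles did not deviate together: over 276 pairs the mean correlation was 0.01 and the lowest -0.81. Sample codes also carry a letter, A, B or C. Over 354 pairs with the same letter the mean correlation was 0.006 and the lowest -0.84. Alternatives covered scaling, choice of feature, blocks, controls by code, and leaving out each sample.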

Additional observations from a re-analysis of the deposited data

Results flagged for a closer look

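MARCO in replicate 5 of the 6 h controls had a log2 value of 8.30, far from the next of its group, 7.61, and from the lowest, 7.32. It was the 1 such value in 16 checks, each of the 8 receptors in both control groups, where chance at about 1 in 20 gives 0.8. That sample is also 1 of the 6 with the strongest surface patterns, and the surface component at the MARCO spot was 0.63 there. The sample 20 columns away, labelled Graphite 24 h, had a MARCO value of 8.45 with a surface component of 0.72. The part of the surface in the MARCO value was not tested.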

How the results depend on the processing

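Of 626 alternative values of the counts and medians, 621 stayed on the same side of the threshold or within the spread used. The count of receptors called in Fullerene 6 h, 0 as reported, was 1 (OLR1) without the 6 samples with the strongest surface patterns and ranged from 0 to 1 over fits that left out 1 sample; the count over the differences between times was 1 without the same 6 samples. Without those 6 samples the Fullerene 6 h samples left, replicates 2 and 3, came from 1 column set. The count of receptors above the bottom of the scale was 3 with the 90th percentile. The median correlation of the pairs, 0.077, was -0.138 within column sets, -0.025 by Spearman's rho and -0.022 with the surface component removed, and from 0.007 to 0.093 when 1 sample was left out, so its sign is not settled. Its spread was taken as a jackknife standard error of 0.114, chosen after the values had been seen; against the wider SD over the 28 pairs no alternative would count as moved. No direction was assigned to fold changes that did not pass: of the 96, 70 changed sign under at least 1 alternative and 26 did not. With the title number as a replicate block in place of dye, 0 receptors were called, and the CD36 value for rCNT 24 h was -0.82 and the OLR1 value for Fullerene 6 h -1.09; the numbers did not pair the samples. The block changed no call of a receptor; the adjusted p of CLDN5 was 0.0818 with it, and CLDN5 passed in 7 of 9 fits that left out 1 sample and in 11 of 18 other settings, with an adjusted p of up to 0.496 and a log2 fold change of 0.83 to 1.40 over all of them. The consensus correlation was -0.02 for the labelled array and 0.72 for the column set. Signal near background limits MARCO, MRC1 and STAB1.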
